A study of Mus musculus with 10 samples.

Results

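The genes described here are 9 Toll-like receptors, Tlr1, Tlr2, Tlr3, Tlr4, Tlr6, Tlr7, Tlr8, Tlr9 and Tlr13, and their shared adaptor Myd88, 10 genes of 33585 in the deposited tables. They were chosen by name and function, with earlier results of these data known. 4 of the receptors (Tlr1, Tlr2, Tlr4, Tlr6) sit mainly on the cell surface and 5 (Tlr3, Tlr7, Tlr8, Tlr9, Tlr13) in endosomes, and the 2 classes were kept apart throughout. The RNA came from tumor-draining lymph nodes (TDLNs) of female BALB/c mice, 6 weeks old, that carried tumors of 4T1, a mouse mammary carcinoma cell line. In both groups the tumor was destroyed by microwave ablation (MWA) on day 10, and the nodes were taken on day 15. Mice of the MWA+2DG group received 500 mg/kg 2-deoxy-D-glucose (2DG), a glucose analog that blocks glycolysis, into the peritoneal cavity every 2 days from the ablation on, and mice of the MWA group received the same volume of PBS, as the study's methods give it. Each group had 5 libraries, numbered 1 to 5. Nodes of mice without ablation are not analysed here, so the values bear on 2DG added to MWA and not on MWA itself. The sources used here do not say whether each library is 1 mouse, so the p-values measure the spread between these libraries.

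Toll-like receptors are sensors of microbial and damage-related molecules. The surface receptors bind mainly lipids and proteins of microbes, Tlr2 together with Tlr1 or Tlr6, and Tlr4 together with Ly96. The endosomal receptors bind nucleic acids: Tlr3 double-stranded RNA, Tlr7 and Tlr8 single-stranded RNA, Tlr9 DNA with unmethylated CpG, and Tlr13 a bacterial ribosomal RNA sequence. All of these receptors except Tlr3 signal through Myd88, which recruits Irak kinases and leads to NF-kB and, in some cells, to Irf7 and type I interferon, while Tlr3 signals through Ticam1 and Tlr4 uses both. In lymph nodes these receptors are known from B cells, macrophages and dendritic cells, and plasmacytoid dendritic cells are known for Tlr7 and Tlr9.

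The libraries were whole nodes, so in these values fewer cells of a type and less RNA per cell cannot be told apart. Values are FPKM (sequenced fragments per kilobase of transcript, scaled to the mapped fragments of the library), a unit per length that allows levels of different genes to be set side by side. The values summed to between 312143 and 359984 FPKM per library, and between 24327 and 25226 genes were above 0. Read depth is not given by FPKM and is unknown here. The nodes carried the markers of the tissue: 8 B cell genes summed to 1364 to 1659 FPKM and 8 T cell genes to 322 to 500 FPKM, and all 16 of them passed the filter on low values. Libraries of replicates 1 and 2 stood apart from replicates 3 to 5 in both groups on the first principal component, which held 36.4% of the variance. The labels name no batch, so these 2 sets are known only from the data. MWA 4 and MWA+2DG 5 stood apart from the rest of their groups, with 281 and 370 of 13334 tested genes at least 1 (log2) above the median of the 4 other libraries, and results that rest on them are given with and without them.

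Tlr1 was the most abundant receptor transcript, and Tlr8 was barely present. The medians over the 10 libraries ran from Tlr1 at 38.5 FPKM through Myd88 (23.8), Tlr9 (8.84), Tlr6 (6.70), Tlr2 (5.55), Tlr7 (4.55), Tlr4 (2.42), Tlr13 (1.66) and Tlr3 (1.52) to Tlr8 (0.214). The range of Myd88 lay wholly above that of Tlr9, and the range of Tlr3 wholly above that of Tlr8. Every other neighbouring pair in this order had overlapping ranges, although Tlr1 exceeded Myd88 in 10 of 10 libraries. Tlr9 exceeded Tlr6, Tlr6 exceeded Tlr2 and Tlr7 exceeded Tlr4 in 9 of 10 libraries each, and Tlr13 exceeded Tlr3 in 7 of 10. Tlr1 alone made up between 34.1% and 61.3% of the summed FPKM of the 9 receptors. Of the mouse receptors outside the 10 genes, Tlr12 lay between 3.27 and 5.26 FPKM, Tlr11 between 1.53 and 3.55, and Tlr5, the flagellin receptor, between 0.238 and 0.813.

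**Figure D1:**
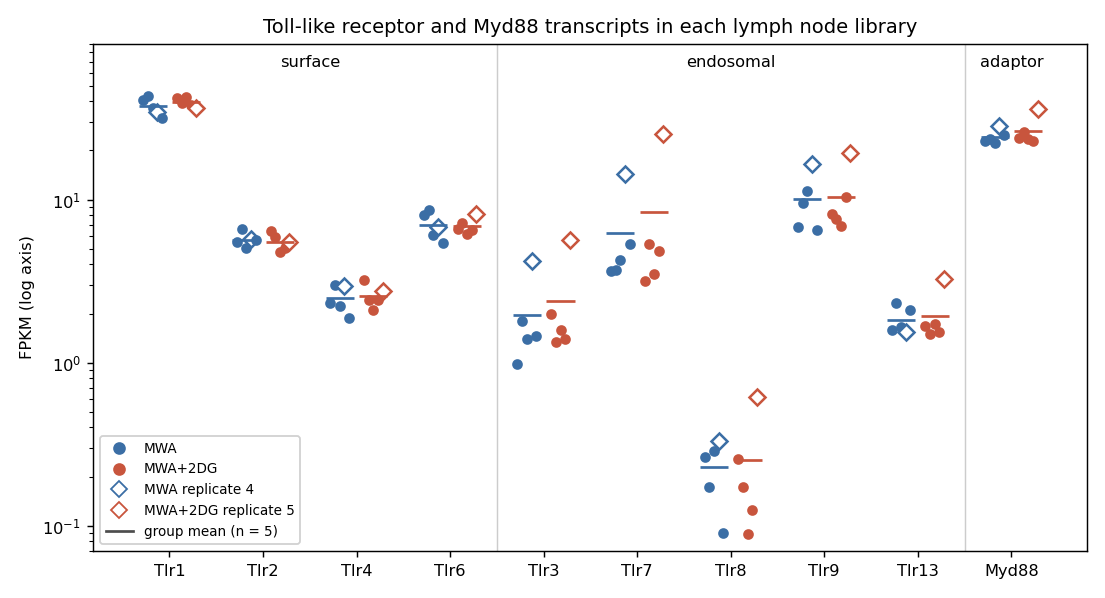
FPKM of each gene (log axis) in the 5 MWA libraries (blue) and the 5 MWA+2DG libraries (red), with a horizontal line at each group mean; open diamonds are MWA replicate 4 and MWA+2DG replicate 5. The 2 groups overlap for all 10 genes, and the open diamonds lie above the other libraries for Tlr3, Tlr7, Tlr8, Tlr9 and Myd88 but not for Tlr1, Tlr2 or Tlr4.

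The surface receptors differed between the groups by less than the spread between libraries. Tlr1 (ENSMUSG00000044827), which pairs with Tlr2 to bind triacylated lipopeptides, was at 40.6, 43.4, 36.3, 34.7 and 31.8 FPKM in MWA libraries 1 to 5 and at 41.7, 39.3, 42.4, 37.8 and 36.4 FPKM in MWA+2DG libraries 1 to 5. The MWA+2DG libraries all lay inside the MWA range, and 4 of 5 lay above the MWA mean. The mean was 37.3 ± 4.65 FPKM in MWA and 39.5 ± 2.56 FPKM in MWA+2DG (SD, n = 5 each). On log2(FPKM + 1), MWA+2DG minus MWA, the log2 fold change was 0.09 with a standard error of 0.09 (exact permutation p = 0.349, limma adjusted p = 0.995).

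Tlr2 (ENSMUSG00000027995), the common partner in these pairs, ranged from 5.05 to 6.57 FPKM in MWA and from 4.75 to 6.44 FPKM in MWA+2DG. Its log2 fold change was -0.04 with a standard error of 0.09 (exact permutation p = 0.667). Tlr6 (ENSMUSG00000051498), which pairs with Tlr2 to bind diacylated lipopeptides, was at 8.06, 8.60, 6.03, 6.83 and 5.42 FPKM in MWA libraries 1 to 5. In MWA+2DG libraries 1 to 5 it was at 6.56, 7.17, 6.15, 6.46 and 8.13 FPKM, again inside the MWA range, with a log2 fold change of -0.01 and a standard error of 0.12 (exact permutation p = 0.976). Tlr4 (ENSMUSG00000039005), the lipopolysaccharide receptor, ranged from 1.87 to 2.98 FPKM in MWA and from 2.09 to 3.19 FPKM in MWA+2DG, with a log2 fold change of 0.04 and a standard error of 0.11 (exact permutation p = 0.722). The 4 surface receptors together had a median log2 fold change of 0.02, beside 0.01 over all 13334 genes tested, and 95% intervals that reached no further than 0.29 in size. A p that misses the threshold does not show that the groups were alike, and those intervals give the size of change that stayed possible on the log2 scale.

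Tlr1 and Tlr6 lie next to each other on chromosome 5 and share a stretch of coding sequence, so their read assignment carries an uncertainty. The longest run of identical bases was 229 bases long, from base 1698 to 1926 of transcript Tlr1-201 and from base 1652 to 1880 of Tlr6-201 (GENCODE vM21), and 13.6% of the 50-base words of Tlr1 occurred in Tlr6. No other pair of the 10 genes shared a run of 20 bases. Sequence shared with genes outside the 10 was not examined. Reads that fall wholly inside the run fit both genes. The study's methods give an average insert longer than the run, so the other read of a pair can lie outside it. The run is shown in lower case with nothing marked:
Tlr1 and Tlr6, shared coding run: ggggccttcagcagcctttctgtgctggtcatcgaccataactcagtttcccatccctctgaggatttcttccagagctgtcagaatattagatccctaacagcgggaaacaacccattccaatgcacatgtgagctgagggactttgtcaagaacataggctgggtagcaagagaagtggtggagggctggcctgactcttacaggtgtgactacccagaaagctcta
The ratio of Tlr1 to Tlr6 FPKM lay between 4.48 and 6.90 over the 10 libraries.

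The endosomal receptors varied far more between libraries than between groups. Tlr7 (ENSMUSG00000044583), a receptor of single-stranded RNA, was at 3.62, 3.70, 4.25, 14.3 and 5.37 FPKM in MWA libraries 1 to 5 and at 3.18, 5.32, 3.52, 4.85 and 25.2 FPKM in MWA+2DG libraries 1 to 5. One library of each group was high, MWA 4 and MWA+2DG 5, and the other 8 spanned 3.18 to 5.37 FPKM with the groups intermixed. The mean was 6.24 ± 4.54 FPKM in MWA and 8.41 ± 9.42 FPKM in MWA+2DG (SD, n = 5 each). The log2 fold change was 0.14 with a standard error of 0.50 and a 95% interval from -0.96 to 1.25 (exact permutation p = 0.762), and without MWA 4 and MWA+2DG 5 it was -0.01 with a standard error of 0.16.

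Tlr9 (ENSMUSG00000045322), the receptor of CpG DNA, was at 6.75, 9.53, 11.3, 16.5 and 6.49 FPKM in MWA libraries 1 to 5 and at 8.14, 7.63, 6.90, 10.3 and 19.2 FPKM in MWA+2DG libraries 1 to 5. The same pair of libraries was highest, but the others were less even than for Tlr7, and MWA 3 and MWA+2DG 4 followed at 11.3 and 10.3 FPKM. Its log2 fold change was 0.02 with a standard error of 0.29 and a 95% interval from -0.62 to 0.66 (exact permutation p = 0.952), and -0.02 with a standard error of 0.18 without the pair. Tlr3 (ENSMUSG00000031639), the receptor of double-stranded RNA, was at 0.986, 1.80, 1.40, 4.19 and 1.45 FPKM in MWA libraries 1 to 5 and at 1.99, 1.33, 1.60, 1.39 and 5.64 FPKM in MWA+2DG libraries 1 to 5. Again MWA 4 and MWA+2DG 5 were highest, and the remaining values did not exceed 1.99 FPKM. Its log2 fold change was 0.15 with a standard error of 0.32 and a 95% interval from -0.55 to 0.86 (exact permutation p = 0.571), and 0.10 with a standard error of 0.12 without the pair. An exon of Gm45542 overlaps Tlr3 on the opposite strand over 258 bases. The library protocol marks strand, but the sources used here do not state that counting used it, and without strand the 2 genes cannot be told apart there.

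Tlr13 (ENSMUSG00000033777), the bacterial ribosomal RNA sensor, was at 1.58, 2.32, 1.65, 1.54 and 2.10 FPKM in MWA libraries 1 to 5 and at 1.68, 1.50, 1.72, 1.54 and 3.26 FPKM in MWA+2DG libraries 1 to 5. It was high in MWA+2DG 5 alone, and MWA 4 had the lowest value of its group. Its log2 fold change was 0.03 with a standard error of 0.15 (exact permutation p = 0.857), and -0.15 with a standard error of 0.10 without MWA 4 and MWA+2DG 5. Tlr8 (ENSMUSG00000040522), the neighbour of Tlr7 in sequence family, ranged from 0.0907 to 0.331 FPKM in MWA and from 0.0890 to 0.615 FPKM in MWA+2DG. It was the one member that did not pass the filter of a mean of 1 FPKM, and its log2 fold change from the fit with no filter was 0.01 with a standard error of 0.11 (exact permutation p = 0.937).

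Myd88 (ENSMUSG00000032508), the adaptor, was at 22.9, 23.6, 22.3, 28.1 and 24.7 FPKM in MWA libraries 1 to 5 and at 23.9, 25.9, 23.5, 22.8 and 36.0 FPKM in MWA+2DG libraries 1 to 5. MWA 4 and MWA+2DG 5 were again the highest of their groups, and the other 8 libraries spanned only 22.3 to 25.9 FPKM. The mean was 24.3 ± 2.33 FPKM in MWA and 26.4 ± 5.49 FPKM in MWA+2DG (SD, n = 5 each). The log2 fold change was 0.10 with a standard error of 0.12 and a 95% interval from -0.17 to 0.37 (exact permutation p = 0.579). Without the pair it was 0.04 with a standard error of 0.07. Myd88 overlaps Acaa1a, a gene of peroxisomal lipid breakdown, on the opposite strand over 223 exon bases, with the same limit as for Tlr3.

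Set against the whole transcriptome, none of the 10 genes passed a test between MWA+2DG and MWA. Of the 9 tested members 0 passed at an adjusted p below 0.05 and 0 passed at an unadjusted P below 0.05, beside 0% and 4.25% of all tested genes (0 and 567 of 13334). By the thresholds of the study (unadjusted P below 0.05 and a log2 fold change beyond 0.25), 0 members were higher and 0 lower, beside 0.952% of tested genes higher and 1.87% lower. The 2 groups overlapped for all 10 members, where 0.802% of tested genes had groups that did not overlap. Two-sided exact permutation tests gave p between 0.349 (Tlr1) and 0.976 (Tlr6), where 5 against 5 libraries can go down to 0.00794. With labels exchanged only within replicates 1 and 2 and within replicates 3 to 5, the exact permutation p lay between 0.25 (Tlr1) and 0.967 (Tlr6), where the smallest possible is 0.0167. The median log2 fold change was 0.02 over the surface receptors and 0.09 over the 4 tested endosomal receptors, and the latter became -0.02 without MWA 4 and MWA+2DG 5. The direction of Tlr7, Tlr9 and Tlr13 turned without that pair, and that of Tlr2 and Tlr6 turned when each library was rescaled to the same total. The split over all genes by the study's thresholds also turned, from 127 higher and 249 lower of 13334 tested to 440 higher and 205 lower of 16550 tested. The filter and the pseudocount were applied after rescaling, so this fit differs in more than the scale.

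**Figure D2:**
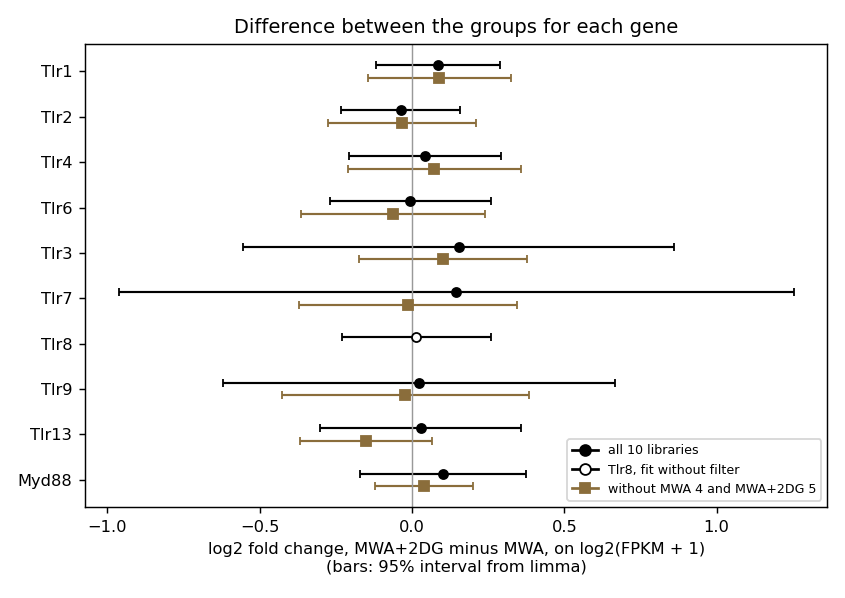
Log2 fold change of each gene, MWA+2DG minus MWA on log2(FPKM + 1), with its 95% interval from limma, for all 10 libraries (black circles, open for Tlr8, which came from the fit with no filter) and without MWA 4 and MWA+2DG 5 (brown squares). All intervals include 0, and those of Tlr7, Tlr9 and Tlr3 narrow without the 2 libraries.

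The libraries differed most in Tlr7, Tlr3 and Tlr9, which were high together with Myd88 in MWA 4 and MWA+2DG 5, 1 library of each treatment. The comparison below is with the median of the 4 other libraries of the same group and is a description, with no test, since these libraries were picked for their values. In MWA 4, Tlr7 was 3.59-fold, Tlr3 2.94-fold, Tlr9 2.03-fold and Myd88 1.21-fold the median. In MWA+2DG 5, Tlr7 was 6.02-fold, Tlr3 3.77-fold, Tlr9 2.43-fold, Tlr13 2.03-fold and Myd88 1.52-fold the median. The surface receptors differed from their medians by log2 values between -0.14 (Tlr1) and 0.27 (Tlr4) in MWA 4 and between -0.15 (Tlr1) and 0.28 (Tlr6) in MWA+2DG 5. Tlr8 was 4.12-fold its median in MWA+2DG 5, but from 0.149 to 0.615 FPKM. On the log2(FPKM + 1) scale, 2 of the 10 members were at least 1 above the median in MWA 4 (Tlr3 and Tlr7), where 2.11% of tested genes were, and 3 of 10 in MWA+2DG 5 (Tlr3, Tlr7 and Tlr9), where 2.77% of tested genes were. Both libraries shared 190 such genes, 1.42% of those tested.

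**Figure D3:**
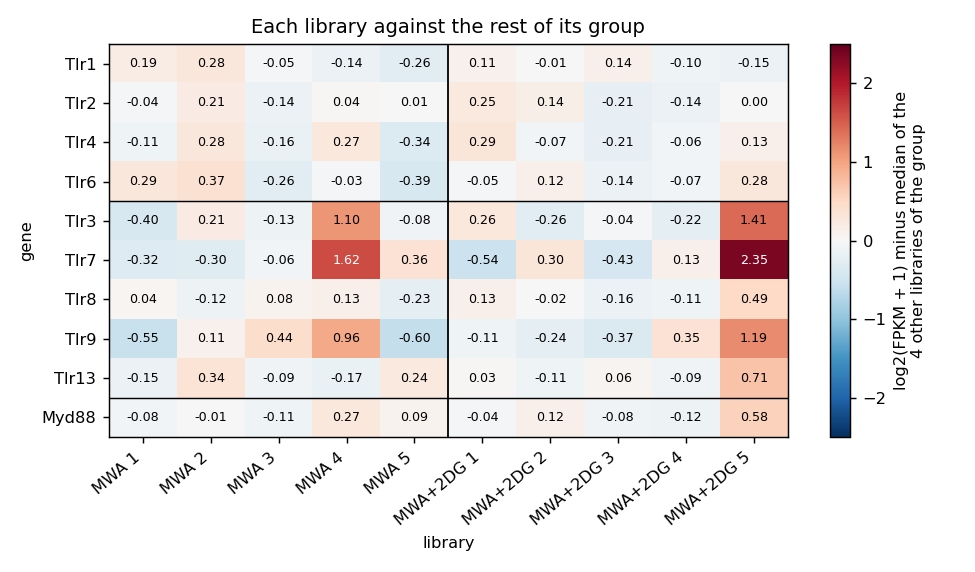
For each gene (rows) and library (columns), log2(FPKM + 1) minus the median of the 4 other libraries of the same group. MWA 4 and MWA+2DG 5 stand out for Tlr3 (1.10 and 1.41), Tlr7 (1.62 and 2.35) and Tlr9 (0.96 and 1.19), while the 4 surface receptors stay between -0.15 and 0.28 in both.

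The make-up of the receptor transcripts differed in those libraries. The endosomal receptors held 42.4% of the summed receptor FPKM in MWA 4 and 50.5% in MWA+2DG 5, against 18.9% to 27.6% in the other 8 libraries. The summed surface receptors were at 50.2 and 52.7 FPKM in the same libraries, inside the 44.7 to 61.5 FPKM of the others. Tlr7 was at 0.863 times the Tlr9 level in MWA 4 and 1.31 times in MWA+2DG 5, where the other libraries lay between 0.377 and 0.827, so MWA+2DG 5 was the one library with more Tlr7 than Tlr9. The standard deviation of log2(FPKM + 1) over all 10 libraries was 0.87 for Tlr7, 0.55 for Tlr3 and 0.50 for Tlr9, beside a median of 0.17 over tested genes and 0.14 for Tlr1. Over the other 8 libraries it was 0.23, 0.18 and 0.27. For Myd88 it was 0.20 over all 10 and 0.07 over the other 8, where only 4.03% of tested genes varied less.

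Genes known to be induced by interferon were high in the same libraries. The mean log2(FPKM + 1) of 10 interferon-stimulated genes (Isg15, Ifit1, Ifit2, Ifit3, Mx1, Usp18, Rsad2, Oasl2, Ifi44 and Stat2, a list written after values were seen) was 5.26 in MWA 4 and 6.21 in MWA+2DG 5. It was 2.88 in MWA 5 and 3.37 in MWA+2DG 2, and 2.04 to 2.30 in the remaining 6. All 10 of these genes were at least 1 (log2) above the median of the rest of their group in both MWA 4 and MWA+2DG 5. Of all tested genes, 1.42% were. Irf7, the transcription factor downstream of Tlr7, Tlr9 and Myd88 and itself interferon-induced, was at 134 FPKM in MWA 4 and 359 FPKM in MWA+2DG 5, against 15.5 to 74.4 FPKM in the others. Isg15, a ubiquitin-like protein, was at 134 and 323 FPKM there, against 9.49 to 47.2 FPKM. Of these 10 genes, 0 passed the study's thresholds between the treatments.

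Because MWA 4 and MWA+2DG 5 form a cluster of their own, the relation of each member to these genes was examined over the other 8 libraries only. The list of these genes was written after values were seen, and treatment and replicate set were not adjusted for, so the p-values are descriptive. Over those 8 libraries, Myd88 had a Pearson r of 0.90 with the interferon-stimulated mean (exact permutation p = 0.00439, 0.0439 adjusted over 10 relations). Its Spearman rho was 0.62 (exact permutation p = 0.115, adjusted 0.575). Without the 2 libraries farthest from the median, MWA 5 and MWA+2DG 2, r was 0.33, so the relation rests on them. For Tlr7, r was 0.73 (exact permutation p = 0.0269, adjusted 0.134) and rho 0.64 (exact permutation p = 0.0962, adjusted 0.575), and r was -0.09 without the same libraries. The other 8 members had r between -0.37 and 0.21, with exact permutation p adjusted to at least 0.789. Tlr3 and Tlr9, which were high in MWA 4 and MWA+2DG 5, were at 1.45 and 6.49 FPKM in MWA 5 and at 1.33 and 7.63 FPKM in MWA+2DG 2, none of them above the highest of the remaining 6 libraries (1.99 FPKM for Tlr3 and 11.3 FPKM for Tlr9).

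**Figure D4:**
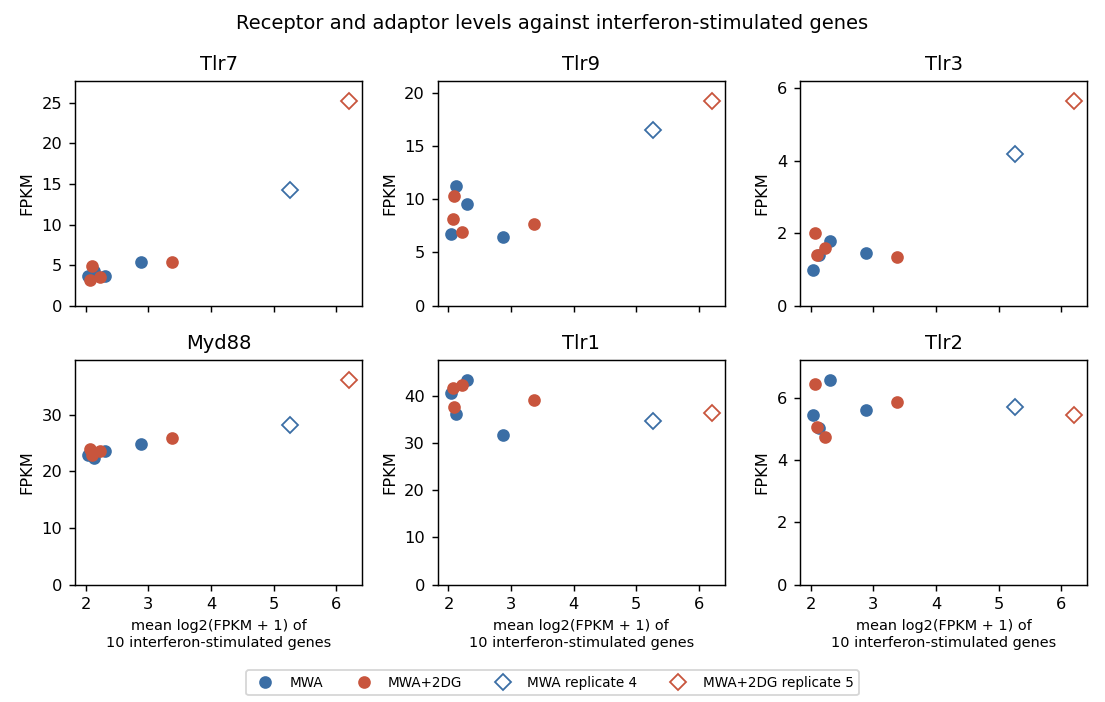
FPKM of 6 of the genes against the mean log2(FPKM + 1) of 10 interferon-stimulated genes, 1 point per library, MWA in blue and MWA+2DG in red, with MWA 4 and MWA+2DG 5 as open diamonds. At 5.26 and 6.21 on the horizontal axis, Tlr7, Tlr9, Tlr3 and Myd88 are at their highest, while Tlr1 and Tlr2 stay among the other libraries.

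The promoters of the members were read for the motif of interferon-activated factors. The RefSeq promoter table (GRCm38.p6, 250 bases before to 50 after each start) had entries for 8 of the 10 genes, all but Tlr4 and Tlr7. The interferon-stimulated response element was searched as GAAANNGAAA on both strands, and 3.44% of all 32851 promoter windows held it. Myd88 held 1 match, 40 bases before the start, and 1 of the 2 windows of Tlr6 held 2 overlapping matches, 116 and 110 bases before the start. The windows of Tlr1, Tlr2, Tlr3, Tlr8, Tlr9 and Tlr13 held no exact match. The search allowed no mismatch, and near matches were not counted in any window. The Tlr3 window holds tttcactttg, the Tlr9 window gaaagaggaa and 1 window of Tlr1 tttctttatc, each 1 letter off the motif. These are examples from no systematic search, and other windows may hold such near matches. The 4 windows below are those of the adaptor and of Tlr3 and Tlr9, which were high in MWA 4 and MWA+2DG 5, and that of Tlr6, a surface receptor that held the motif and was not high in MWA 4. Capitals mark the motif.
Myd88, chr9:119339969-119340268, minus strand: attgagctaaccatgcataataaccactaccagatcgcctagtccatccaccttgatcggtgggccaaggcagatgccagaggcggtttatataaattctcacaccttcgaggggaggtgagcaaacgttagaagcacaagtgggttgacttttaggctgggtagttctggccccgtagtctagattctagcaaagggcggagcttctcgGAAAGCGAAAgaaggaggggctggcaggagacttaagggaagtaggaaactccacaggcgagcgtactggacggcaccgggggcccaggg
Tlr6, chr5:64959117-64959416, minus strand: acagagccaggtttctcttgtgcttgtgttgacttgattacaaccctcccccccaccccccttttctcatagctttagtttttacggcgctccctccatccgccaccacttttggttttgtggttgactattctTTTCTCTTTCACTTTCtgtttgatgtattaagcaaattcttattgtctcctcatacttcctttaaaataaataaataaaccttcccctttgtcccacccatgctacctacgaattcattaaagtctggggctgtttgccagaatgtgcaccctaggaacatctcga
Tlr3, chr8:45410331-45410630, minus strand: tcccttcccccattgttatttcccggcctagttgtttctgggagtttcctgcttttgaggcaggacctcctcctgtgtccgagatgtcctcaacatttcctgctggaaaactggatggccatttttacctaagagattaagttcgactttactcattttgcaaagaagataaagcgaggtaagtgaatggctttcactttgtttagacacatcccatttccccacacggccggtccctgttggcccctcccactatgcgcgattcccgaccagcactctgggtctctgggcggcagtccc
Tlr9, chr9:106222348-106222647, plus strand: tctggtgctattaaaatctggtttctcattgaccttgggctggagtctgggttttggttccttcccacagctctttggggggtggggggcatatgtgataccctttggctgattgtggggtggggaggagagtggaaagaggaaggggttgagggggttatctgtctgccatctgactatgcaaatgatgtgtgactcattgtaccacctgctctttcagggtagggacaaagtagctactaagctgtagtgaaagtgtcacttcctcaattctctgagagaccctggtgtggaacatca
Other motifs were searched in the same windows on both strands. The gamma-activated site, TTCNNNGAA, was in 8.3% of all windows. It had 1 match each in Tlr1, Tlr8 and Myd88, the last 46 bases before the start and overlapping the response element, and 2 in the other window of Tlr6. The NF-kB motif was in 8.46% of all windows, in Tlr2 with 3 matches and in Tlr3 with 1. The PU.1 core GAGGAA, the motif of a myeloid and B cell factor, was in 28.3% of all windows, with 2 matches in Tlr9 and 1 each in Tlr1, Tlr8 and Tlr13. Tlr6, whose window held the response element, was at 0.969-fold and 1.25-fold its median in MWA 4 and MWA+2DG 5. A match is a description of letters and not a bound site.

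The genes whose patterns came closest to each member were taken by Pearson r of log2(FPKM + 1) over the 10 libraries after subtracting group means, as a description. The 10 points include MWA 4 and MWA+2DG 5, so r over the other 8 libraries is given beside some of them. Those 8 still include MWA 5 and MWA+2DG 2, and r without these was not computed for the closest genes. Closest to Tlr7 were Tmem184b (r = 0.995), Mov10 (0.995) and Phf11a (0.994), with r over the other 8 of 0.71, 0.84 and 0.88. Mov10, an RNA helicase with antiviral activity, was at 14.5 and 27.2 FPKM in MWA 4 and MWA+2DG 5, against 5.32 to 8.12 in the others. Closest to Myd88 were Igtp (0.988), an interferon-inducible GTPase, Phf11d (0.986) and Parp12 (0.985). Over the other 8, r with Myd88 was 0.93 for Igtp, 0.92 for Phf11d and 0.96 for Parp12. Parp12, an interferon-induced ADP-ribosyltransferase, was at 12.9 and 23.4 FPKM against 3.12 to 5.50. For Tlr3 they were Tpst1 (0.978), ENSMUSG00000118591 (0.967) and Trim14 (0.966), with r over the other 8 of 0.48, 0.30 and 0.60.

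Tlr9 had a different set of neighbours. They were Plek (0.979), 5430427O19Rik (0.967) and Fndc3a (0.966), and for Plek, a substrate of protein kinase C in blood cells, the r over the other 8 libraries was also 0.98. For 5430427O19Rik and Fndc3a it was 0.78 and 0.84. Plek was at 55.7 and 51.8 FPKM in MWA 4 and MWA+2DG 5, against 37.6 to 46.0. 5430427O19Rik, the mouse counterpart of the adaptor TASL that links endosomal receptors to Irf5, was at 4.98 and 5.90 FPKM against 3.00 to 4.39. For Tlr13 the closest were Lgmn (0.961), a lysosomal protease, Cd14 (0.956), a lipopolysaccharide co-receptor of myeloid cells, and Ltbr (0.927). Their r over the other 8 was 0.83, 0.85 and 0.53. Cd14 was at 4.24 FPKM in MWA 4 and 8.99 FPKM in MWA+2DG 5, against 4.22 to 6.30 in the others, so, like Tlr13, it was high in MWA+2DG 5 alone. For Tlr8 they were Col23a1 (0.970), Rai14 (0.961) and Stat3 (0.959).

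Closest to the surface receptors were Pigv (0.976), Scamp2 (0.970) and Bbs2 (0.970) for Tlr1, Rab7 (0.970), Mapkapk2 (0.951) and Lbp (0.932) for Tlr2, Usp32 (0.959), Ino80 (0.956) and Hps3 (0.951) for Tlr4, and Rgs12 (0.955), Insl3 (0.937) and Scd1 (0.936) for Tlr6. Among the members themselves, group-centred r was 0.95 for Tlr7 with Myd88, 0.90 for Tlr3 with Tlr7 and 0.85 for Tlr7 with Tlr9, and -0.58 for Tlr1 with Tlr7. Between the sets of replicates, the surface receptors were lower in replicates 3 to 5 than in replicates 1 and 2 by a mean log2 difference between -0.14 (Tlr4) and -0.20 (Tlr6). Tlr7 was higher there by 0.78, Tlr9 by 0.42 and Tlr3 by 0.40, sets that include MWA 4 and MWA+2DG 5.

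The wider pathway gave no call by the study's thresholds either. Of 80 further genes in 8 lists (other receptors, co-receptors and chaperones, other adaptors, kinases and ligases, transcription factors, negative regulators, induced targets and other pattern recognition receptors), 67 were tested. By the study's thresholds 0 were higher and 0 lower, 0 passed at an adjusted p below 0.05, and 1 had an unadjusted P below 0.05, beside 4.25% of all tested genes. Their median log2 fold change was 0.05, and 44 of the 67 values were positive, where 52.6% of all tested genes were positive. The gene was Ikbke, a kinase upstream of Irf3 and Irf7, at 15.3 ± 1.40 FPKM in MWA and 18.2 ± 1.42 FPKM in MWA+2DG (SD, n = 5 each), a log2 fold change of 0.24 with a standard error of 0.08 (limma P = 0.0162, exact permutation p = 0.0238, limma adjusted p = 0.995).

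Among the partners of the receptors, all 10 co-receptors and chaperones were tested and 5 had positive values, with a median log2 fold change of 0.02. Those of smallest P were Cd36, a scavenger receptor that works with Tlr2 and Tlr6, at 0.35 with a standard error of 0.20, and Ly86, the partner of Cd180, at -0.12 with a standard error of 0.15. Unc93b1, which carries the endosomal receptors to their compartment, was at 156 FPKM in MWA+2DG 5 and at 100.2 FPKM in MWA 4, where the other libraries lay between 85.8 and 107 FPKM. It was high in one of the libraries with high Tlr7 and not in the other. Ly96, the partner of Tlr4, had a log2 fold change of -0.06 with a standard error of 0.14, and Cnpy3, a folding chaperone of the receptors, 0.00 with a standard error of 0.09. None of the 10 was at least 1 (log2) above the median in both libraries, where 1.42% of all tested genes were.

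Of the other adaptors, 4 of 5 were tested, and all 4 values were negative with a median of -0.06. Ticam1, the adaptor of Tlr3, had a log2 fold change of -0.06 with a standard error of 0.07 and lay between 6.79 and 8.78 FPKM over all libraries, MWA 4 and MWA+2DG 5 included. Tirap, which bridges Tlr2 and Tlr4 to Myd88, was at -0.10 with a standard error of 0.14. All 15 kinases and ubiquitin ligases were tested and 13 values were positive, with a median of 0.08. Besides Ikbke, the smallest P was that of Peli1, a ligase of the Irak complex, at 0.17 with a standard error of 0.10. Irak4, the first kinase that Myd88 recruits, was at 0.04 with a standard error of 0.08 and Traf6, the ligase after it, at 0.07 with a standard error of 0.10.

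Of 7 transcription factors, all tested, 5 values were positive with a median of 0.01, and Rela (0.08, standard error 0.07) and Nfkb1 (0.07, standard error 0.07), both NF-kB subunits, had the smallest P. Of 8 negative regulators 7 were tested, and 4 values were positive with a median of 0.01. Sigirr, a decoy receptor of the family, was at 0.17 with a standard error of 0.09 and Irak3, an inhibitory kinase-like protein, at 0.11 with a standard error of 0.07. Of 20 induced target genes 12 were tested, and 6 values were positive with a median of 0.00. Cd40, a costimulatory receptor, was at -0.16 with a standard error of 0.09 and Nfkbiz, an NF-kB co-regulator, at 0.19 with a standard error of 0.11. The other mouse receptors tested, Tlr11 and Tlr12, were at 0.15 and 0.10 with standard errors of 0.13 and 0.11. Of 12 other pattern recognition receptors 10 were tested and 9 values were positive with a median of 0.13, and the smallest P belonged to Tmem173, the STING adaptor of DNA sensing, at 0.13 with a standard error of 0.08, and to Nod1, a peptidoglycan sensor, at 0.17 with a standard error of 0.14.

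**Figure D5:**
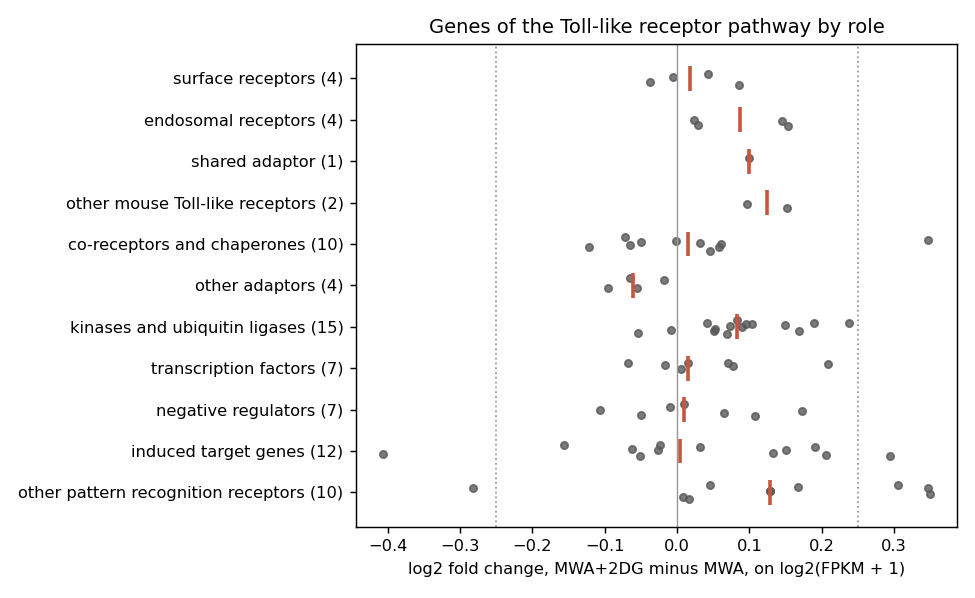
Log2 fold change, MWA+2DG minus MWA on log2(FPKM + 1), of each tested gene of the pathway by role, with the number tested in brackets, the list median as a red bar and dotted lines at the study's threshold of 0.25 in each direction. The medians lie between -0.06 (other adaptors) and 0.13 (other pattern recognition receptors), and no gene met the study's thresholds.

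A few other pathway genes were high together with the endosomal receptors in MWA 4 and MWA+2DG 5. At least 1 (log2) above the median in both libraries were 1 of 7 transcription factors (Irf7), 3 of 12 tested target genes (Il1b, Cxcl10 and Ccl4) and 3 of 10 tested pattern recognition receptors (Ddx58, Ifih1 and Zbp1), and 0 of 15 kinases and ligases. Of all tested genes, 1.42% were. Cxcl10, an interferon-induced chemokine, was at 51.1 and 86.4 FPKM in MWA 4 and MWA+2DG 5 against 2.20 to 5.44 in the others. Ddx58 and Ifih1, the cytosolic RNA sensors RIG-I and MDA5, were at 25.8 and 39.2 FPKM against 9.56 to 15.2, and at 9.39 and 15.8 FPKM against 1.67 to 4.11. Zbp1, a nucleic acid sensor, was at 80.6 and 187 FPKM against 12.5 to 29.7. Ccl4, a chemokine, was at 5.95 and 10.9 FPKM against 0.605 to 2.14, and the cytokine gene Il1b at 7.71 and 5.18 FPKM against 1.21 to 3.51.

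Markers of the cell types known for these receptors did not follow one pattern in those libraries. The 8 B cell genes summed to 1478 FPKM in MWA 4 and 1403 FPKM in MWA+2DG 5, inside the 1364 to 1659 FPKM of the others. The 8 plasmacytoid dendritic cell genes summed to 53.3 and 75.7 FPKM against 40.8 to 64.4, and Ly6d alone held 50.5 FPKM of the sum in MWA+2DG 5. The 7 others summed to 28.1 and 25.3 FPKM against 20.5 to 41.6. Siglech, a defining surface marker of these cells, was at 6.48 FPKM in MWA 4 and, at 2.57 FPKM, lowest of all in MWA+2DG 5, against 3.10 to 10.1 FPKM. Cox6a2, also of this list, went the other way in MWA+2DG 5. It was highest of all there, at 4.84 FPKM, and at 3.49 FPKM in MWA 4, against 2.81 to 4.05 FPKM. Over the 7 tested genes of the list, the median departure from the rest of the group was 0.005 and 0.02 (log2) in MWA 4 and MWA+2DG 5. The 12 macrophage genes summed to 243 and 274 FPKM against 214 to 353. Of them, 1, the interferon-inducible Fcgr1, was at least 1 (log2) up in both, where 1.42% of all tested genes were. The 8 monocyte genes summed to 1616 and 1210 FPKM against 1220 to 2338, the lowest sum being that of MWA+2DG 5. Lyz2 made up most of that sum and differed from the median of the 4 other libraries by -0.17 and -0.45 (log2) in MWA 4 and MWA+2DG 5. The 7 others summed to 155 and 293 FPKM against 49.2 to 94.3, and Ly6c2 and Ms4a4c among them were at least 1 (log2) up in both. The 8 conventional dendritic cell genes summed to 81.9 and 107 FPKM against 94.0 to 123. The 8 T cell genes summed to 322 and 358 FPKM against 328 to 500, below all others in MWA 4. The 6 liver genes summed to 180 and 123 FPKM against 22.0 to 159, and 5 of them were at least 1 (log2) up in both. They also followed the replicate sets, with 22.0 to 27.2 FPKM in replicates 1 and 2 and 78.0 to 180 FPKM in replicates 3 to 5 of both groups. The median of the 4 other libraries mixes both sets, so this count cannot be told apart from the difference between the sets. The 5 adipose genes summed to 2.33 FPKM in MWA 4 and 38.8 FPKM in MWA+2DG 5 against 2.57 to 21.5. The part of any of these in the receptor levels was not tested.

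Between the treatments, 1 of 80 tested marker genes was higher by the study's thresholds and 5 were lower (1.25% and 6.25%), beside 0.952% and 1.87% of all tested genes. Cd8a was higher in MWA+2DG (log2 fold change 0.28, standard error 0.11), and Clec10a, Csf1r, Lyz2, S100a8 and S100a9, genes of myeloid cells, were lower (-0.38, -0.30, -0.47, -1.43 and -1.61, with standard errors of 0.14, 0.13, 0.16, 0.54 and 0.52), all with an adjusted limma p of 0.995. Leaving out 1 library at a time, Lyz2 and S100a9 passed in 10 of 10 fits, S100a8 in 9 (not without MWA+2DG 2), Cd8a and Clec10a in 5 and Csf1r in 4. Without MWA 1, where S100a8 and S100a9 were highest, their log2 fold changes were -0.95 and -1.16. The 10 neutrophil genes summed to 101 FPKM in MWA 1 and to 22.9 to 28.3 FPKM in the other 4 MWA libraries, and to 11.5 to 25.3 FPKM in MWA+2DG. The sums of 9 fibroblastic stroma genes (1134 to 1874 FPKM), 8 endothelial genes (241 to 901 FPKM) and 6 epithelial genes (1.84 to 13.4 FPKM) overlapped between the groups.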

How the data were processed

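Bulk RNA-seq of TDLNs from 2 groups of 5 libraries was analysed. The authors deposited FPKM values per gene, made by them with HISAT2 and StringTie, and ballgown is named in the study's methods. The submitters' processing notes name cutadapt 1.9, HISAT2 2.0.4, UMI-tools, StringTie 1.3.4d and build mm9, while the study's methods name fastp, and RNA input is given differently in the 2 sources. Of 33643 identifiers 33541 were matched to symbols, values of 57 symbols with several identifiers were summed, and 33585 genes remained. The 13334 genes that averaged 1 FPKM or more across libraries were fitted with limma 3.58.1 (R 4.3.3) on log2(FPKM + 1), and p-values were adjusted by the Benjamini-Hochberg method over all tested genes. A fold change on this scale understates the change of low genes. Genes were counted at an adjusted p below 0.05 and by the thresholds of the study (unadjusted P below 0.05, log2 fold change beyond 0.25). Single genes were also tested by two-sided exact permutation (scipy 1.17.1). The fit was tested on simulated data. Groups came from the treatment in the labels. The members and the gene lists were chosen with earlier results of these data known. Genes named were the 10 members, list genes called by a rule, the 2 of smallest P in each pathway list and the 3 closest to each member. Unc93b1, Ly96, Cnpy3, Irak4, Traf6, Ticam1, Tlr5, Siglech, Cox6a2, Ly6d, Isg15, Fcgr1, Ly6c2, Ms4a4c and the genes high in both MWA 4 and MWA+2DG 5 were named after their values were seen, some of them for their role. Alternatives in pseudocount, filter, scaling, variance model, replicate number, replicate set and libraries were tried. Read depth is unknown from FPKM, so no counting interval is given. Shared sequence and exon overlaps came from GENCODE vM21 and promoters from RefSeq on GRCm38.p6, a build other than mm9, and no deposited coordinate was used.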

Additional observations from a re-analysis of the deposited data

Results flagged for a closer look

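Among the members, 5 of 20 groups of 5 libraries held a value whose gap to its nearest neighbour, divided by the whole range of log2(FPKM + 1) in the group, exceeded 0.71, where chance alone gives about 1 in 20. They were Tlr3 in MWA+2DG 5 (gap ratio 0.761), Tlr7 in MWA 4 (0.732) and in MWA+2DG 5 (0.775), Tlr13 in MWA+2DG 5 (0.843) and Myd88 in MWA+2DG 5 (0.719), each the highest of its group. Tlr9 was highest in the same libraries without passing this limit. The rate of about 1 in 20 holds for independent groups. Several members varied together over the same libraries, so the 5 of 20 is a description and cannot be set against that rate.

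Over the genes examined in this way, 22 of 108 groups passed the limit, 18 of them in MWA 4 or MWA+2DG 5. Many of these genes were named because they were high in those libraries, so this count cannot be set against chance. High in MWA 4 were Cxcl10 (0.783), Ddx58 (0.891), Ifih1 (0.897), Mx1 (0.908) and Parp12 (0.71). High in MWA+2DG 5 were Cxcl10 (0.835), Ccl4 (0.765), Cd14 (0.762), Ddx58 (0.761), Nod1 (0.835), Mov10 (0.774) and Parp12 (0.744), and Ikbke was low there (0.742). Outside those libraries, Ly96 (0.755) and Nfkb1 (0.81) were low in MWA 5, at 1.38 and 18.4 FPKM, and the neutrophil genes S100a8 (0.792) and S100a9 (0.754) were high in MWA 1, at 21.9 and 46.9 FPKM.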

How the results depend on the processing

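No member passed an adjusted p of 0.05 or the study's thresholds under any alternative, the smallest unadjusted limma P being 0.145 (Tlr1 without MWA replicate 2) and the smallest adjusted p 0.852 (Tlr13 without MWA 4 and MWA+2DG 5, an alternative chosen after seeing the data). Of 177 alternative log2 fold changes of members, 154 kept their direction and 23 turned it. Rescaling each library to the same total gave Tlr2 0.0178 and Tlr6 0.0554. Without both MWA 4 and MWA+2DG 5, Tlr7 was -0.0133, Tlr9 -0.0222 and Tlr13 -0.15. Leaving out 1 library at a time, Tlr1 ranged from 0.0313 to 0.14, Tlr2 from -0.0869 to 0.00791, Tlr4 from -0.0237 to 0.0942, Tlr6 from -0.0808 to 0.0644, Tlr3 from -0.121 to 0.377, Tlr7 from -0.325 to 0.456, Tlr9 from -0.205 to 0.206, Tlr13 from -0.113 to 0.087 and Myd88 from -0.0131 to 0.152; Tlr3, Tlr7 and Myd88 turned only without MWA+2DG 5. Over all genes, leaving out 1 library gave 0 to 1 calls at an adjusted p below 0.05 (1 without MWA 2), 82 to 222 genes higher and 176 to 315 lower by the study's thresholds, and the 1.5-fold range was left without MWA 1 (199 higher), MWA 5 (82), MWA+2DG 1 (83) and MWA+2DG 5 (222). A filter of 5 FPKM gave 69 higher and 161 lower, with fewer genes tested. The rescaled libraries gave 440 higher and 205 lower, with more genes tested (16550). The fit without both MWA 4 and MWA+2DG 5 gave 203 higher and 155 lower. The cause of the last 2 was not tested. With the replicate number as a block, 0 genes passed at an adjusted p below 0.05, 164 were higher and 285 lower by the study's thresholds, and no member was called. The sources used here do not say whether the numbers pair the libraries, and correlations cannot settle it. Same-numbered libraries correlated in their deviations from the group means by 0.03 to 0.50. Of 10 libraries, 3 correlated best with their own number. Read depth is unknown from FPKM, which limits what can be said of Tlr8.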
